A study of Mus musculus with 3 samples.

Results

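The 10 genes described here encode the enzymes and the transporter through which macrophages take up arginine, turn it into nitric oxide, ornithine or polyamines, and make itaconate. They are Nos2, Arg1, Arg2, Acod1, Ass1, Asl, Slc7a2, Odc1, Gch1 and Sat1. They were taken by name as a pathway list, and all 10 were found among the 55536 genes of the deposited tables. The cells were primary macrophages grown from bone marrow of C57BL/6J mice and labelled as given lipid A, the membrane anchor of bacterial endotoxin, at 100 ng/ml for 0 minutes. That single condition was sequenced in 3 polyA RNA libraries, called replicates 1, 2 and 3, each from its own biosample. Sex and age were not collected, and all 3 biosamples point to the same donor record. The labels do not say whether different animals supplied the biosamples, and part of the spread may be technical. There is no stimulated or control group, and so no contrast between conditions. What follows is the level of each gene, how far it moved between libraries, and which transcripts carried it.

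As background, arginine stands at a branch point in macrophages. Inducible nitric oxide synthase (Nos2) oxidises it to nitric oxide and citrulline, a reaction that needs tetrahydrobiopterin, and arginase splits it into ornithine and urea. Ornithine feeds the polyamines through ornithine decarboxylase, citrulline is recycled to arginine by the sequential action of argininosuccinate synthase and lyase, and itaconate is made from the Krebs cycle intermediate cis-aconitate. Nos2 and Acod1 are known for strong induction by endotoxin, and Arg1 for induction by interleukin 4, in this cell type.

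Libraries totalled 27946047, 29779380 and 53447427 expected counts (reads shared out among genes) in replicates 1, 2 and 3. All 6 macrophage markers were at 1 TPM (a transcript level per length, scaled to the same sum in each library) or more in every library, among them Csf1r, the receptor of the macrophage growth factor, at 591, 1279 and 806 TPM. The 8 neutrophil markers summed to 172, 36.2 and 337 TPM. Of these, 4 reached 1 TPM in every library, among them S100a9 at 86.9, 20.1 and 183 TPM. Another 3 stayed below it in every library, among them Ly6g at 0 throughout. The 5 monocyte markers summed to 37.2 to 40.3 TPM and 5 dendritic cell markers to 4.96 to 9.86 TPM. Markers of stromal or endothelial cells, of T, NK or B cells and of erythroid or mast cells summed to at most 3.24 TPM in any library. An annotated ribosomal RNA gene took 9.75%, 1.88% and 2.50% of counts and mitochondrial genes 1.84%, 2.24% and 6.98% in replicates 1, 2 and 3. The part of these differences in the results below was not tested, and in such bulk libraries fewer cells of a kind and less RNA per cell cannot be told apart.

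By mean TPM, the polyamine genes Sat1 and Odc1 were the most abundant of the set, although Odc1 was below Asl in replicate 2. The genes of citrulline recycling, itaconate and cofactor synthesis were intermediate, and Slc7a2, Nos2 and both arginases were low or hardly detected. Of the 10 genes, 6 reached 1 TPM in every library (Sat1, Odc1, Asl, Acod1, Gch1 and Ass1) and 2 stayed below it in every library (Arg1 and Arg2). Together the 10 genes took 0.0459%, 0.121% and 0.0695% of all TPM in replicates 1, 2 and 3.

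**Figure D1:**
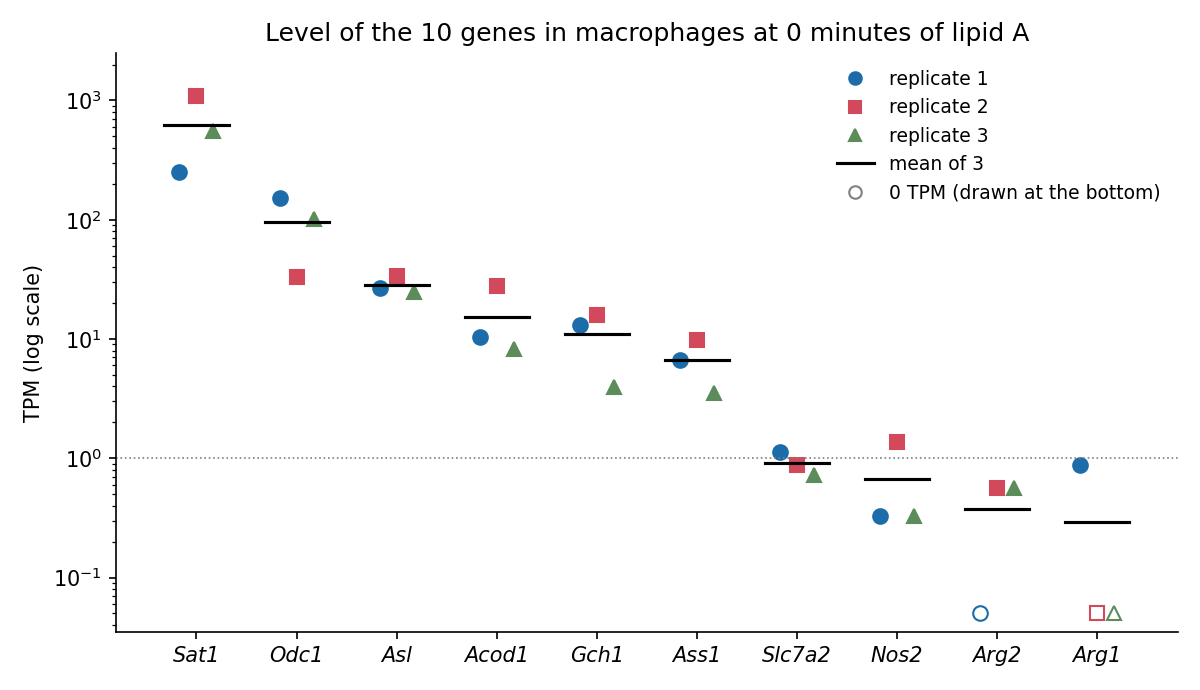
Level of each of the 10 genes in TPM on a log axis, 1 point per library, with the mean of 3 as a bar, in order of mean level; open symbols drawn at the bottom stand for 0 TPM and the dotted line for 1 TPM. Sat1 lies between 249 and 1084 TPM, whereas Nos2, Arg2 and Arg1 lie at 1.36 TPM or less.

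Arginine supply came first in the order of the pathway. Slc7a2 (chromosome 8, 40862396 to 40922308, plus strand; all gene positions are mm10) encodes the cationic amino acid transporter CAT2, which brings arginine into activated macrophages. It stood at 1.12, 0.87 and 0.73 TPM in replicates 1, 2 and 3, a mean of 0.907 ± 0.198 (SD, n = 3), from 131, 103 and 220 counts. The libraries lay close together at a low level, with only replicate 1 above 1 TPM. Slc7a1, the constitutive transporter CAT1, stood at 10.2, 1.63 and 2.91 TPM. It was above Slc7a2 in each library, and the ratio of Slc7a2 to Slc7a1 TPM was 0.109, 0.534 and 0.251.

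Ass1 (chromosome 2, 31470207 to 31520672, plus strand) encodes argininosuccinate synthase, which joins citrulline to aspartate. Its level was 6.70, 9.87 and 3.55 TPM (6.71 ± 3.16, SD, n = 3). Asl (chromosome 5, 130011258 to 130029247, minus strand) encodes the lyase that releases arginine from argininosuccinate, and it stood at 26.7, 33.5 and 24.6 TPM (28.3 ± 4.64, SD, n = 3). The lyase exceeded the synthase in every library, by 3.98, 3.39 and 6.94 times in TPM, and their ranges did not overlap. Otc, which makes citrulline from ornithine in the liver urea cycle, was listed at 0, 0 and 0.01 TPM.

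Nos2 (chromosome 11, 78920787 to 78960254, plus strand) was low in every library. Its level was 0.33, 1.36 and 0.33 TPM (0.673 ± 0.595, SD, n = 3), from 24, 105 and 51 counts. Replicate 2 stood apart from the others, which were equal to each other at this rounding. The deposited posterior intervals of its TPM, whose level of credibility is not given, were 0.242 to 0.779 in replicate 1, 1.11 to 1.90 in replicate 2 and 0.266 to 0.581 in replicate 3, so that of replicate 2 did not overlap the others. Such an interval describes the estimate within a library, not the spread between cultures. It surrounds the deposited posterior mean, here 0.48, 1.48 and 0.41 TPM, which is another estimate than the TPM given as the level. The other synthases were lower still, with Nos1, the neuronal form, listed at 0 in every library and Nos3, the endothelial form, at 0.09, 0.03 and 0.01 TPM.

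Gch1 (chromosome 14, 47153895 to 47189413, minus strand) encodes GTP cyclohydrolase 1, the first enzyme of tetrahydrobiopterin synthesis. It stood at 12.99, 15.8 and 3.96 TPM (10.9 ± 6.19, SD, n = 3), so replicate 3 was the low library and its interval of 3.51 to 4.28 TPM did not reach those of the others. Gchfr, its feedback regulatory protein, was listed at 0, 0.39 and 0.06 TPM. Gch1 exceeded Nos2, whose enzyme needs tetrahydrobiopterin, by 39.4, 11.6 and 12 times in TPM. In the kallisto-format table the ratio was 26.1, 9.355 and 11.08.

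The arginases had few counts or none. Arg1 (chromosome 10, 24915221 to 24927484, minus strand), the cytosolic form, had 7 expected counts in replicate 1 and 0 in both other libraries, or 0.87, 0 and 0 TPM. Of those 7 counts, 4 were put on the full coding transcript Arg1-201 and 3 on short transcripts with a retained intron. The short ones, shorter in effective length, gave most of the TPM: 65.5% of the gene value of replicate 1 was Arg1-202, a transcript of 443 bases. The kallisto-format table gave Arg1 9, 1 and 3 counts. A count of 0 allows up to 3 counts, which is 0.101 CPM (counts scaled to library size) in replicate 2 and 0.0561 CPM in replicate 3, for counting error only.

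Arg2 (chromosome 12, 79130777 to 79156301, plus strand), the mitochondrial form, had 0, 13 and 26 counts, or 0, 0.56 and 0.56 TPM. In the kallisto-format table it had 5, 22.0 and 28.0 counts, so replicate 1 was lowest in both tables. Arg2 overlaps another gene: 285 of its 1428 exonic bases are also exonic in Vti1b, a gene for a vesicle fusion protein on the opposite strand that stood at 95.1, 78.7 and 75.5 TPM. Whether counting used strand is not given in the sources used here, and without strand the few Arg2 counts and reads of Vti1b in the shared bases cannot be told apart. Arg1-201 and Arg2-201 share 0 stretches of 31 bases, so no stretch of that length fits both.

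Odc1 (chromosome 12, 17544794 to 17551505, plus strand) encodes ornithine decarboxylase, the rate-limiting enzyme that makes putrescine. It stood at 151, 33.3 and 101 TPM (95.2 ± 58.97, SD, n = 3), from 5247, 1220 and 5742 counts. Replicate 2 was the low library by a wide margin. The posterior intervals of 138 to 146, 30.3 to 34.7 and 94.5 to 105 TPM did not overlap. They surround posterior means of 142, 32.4 and 99.7 TPM, so the 151 TPM of replicate 1 lies above its interval.

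Sat1 (chromosome X, 155213132 to 155216449, minus strand) encodes spermidine/spermine acetyltransferase, the enzyme that acetylates polyamines for export or oxidation. It stood at 249, 1084 and 552 TPM (628 ± 423, SD, n = 3), the highest level of the 10 in every library. Among 9875 protein-coding genes at 1 TPM or more in every library it ranked at percentile 95.2, 99 and 98.3. Its high library, replicate 2, was the low library of Odc1. The ratio of Sat1 to Odc1 TPM was therefore 1.65, 32.6 and 5.44 in replicates 1, 2 and 3, and 1.71, 33.5 and 6.17 in the kallisto-format table.

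Genes for a pair of proteins that act on ornithine decarboxylase were read beside it. Oaz1, the antizyme that sends the enzyme to the proteasome, stood at 411, 510 and 116 TPM, and Azin1, the antizyme inhibitor, at 152, 42.3 and 49.7 TPM. The ratio of Oaz1 to Odc1 TPM was 2.72, 15.3 and 1.15, highest in replicate 2. Of the oxidases that act beside Sat1, Smox, which oxidises spermine directly, stood at 33.6, 45.1 and 25.1 TPM, and Paox, which oxidises the acetylated products, at 30.1, 35.0 and 14.1 TPM.

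Acod1 (chromosome 14, 103046977 to 103056573, plus strand), the aconitate decarboxylase that makes itaconate, was detected in every library. It stood at 10.4, 27.6 and 8.22 TPM (15.4 ± 10.6, SD, n = 3), from 455, 1287 and 764 counts. Replicate 2 was the high library, with a posterior interval of 24.5 to 27.3 TPM against 8.85 to 10.6 and 7.48 to 8.61 TPM. The 27.6 TPM of replicate 2 lies above its interval, which surrounds a posterior mean of 25.9 TPM. The percentile of Acod1 among the same protein-coding genes was 30.3, 59.1 and 30.9. The ratio of Acod1 to Nos2 TPM was 31.6, 20.3 and 24.9, so both of these endotoxin-responsive genes were high in the same library and far apart in level in all 3. Clybl, a lyase of itaconate breakdown, stood at 5.19, 2.61 and 5.40 TPM.

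The order of mean TPM ran Sat1, Odc1, Asl, Acod1, Gch1, Ass1, Slc7a2, Nos2, Arg2 and Arg1. Of the 9 neighbouring pairs, 4 kept their order in every library: Sat1 above Odc1, Asl above Acod1, Gch1 above Ass1 and Ass1 above Slc7a2. Only Sat1 with Odc1 and Ass1 with Slc7a2 had ranges that did not overlap. The other 5 pairs changed places in 1 library each and do not differ beyond their spread. Odc1 and Asl, for example, stood at 33.30 and 33.48 TPM in replicate 2 but at 151 and 26.7 TPM in replicate 1. In the kallisto-format table they were further apart in replicate 2, at 23.9 and 34.1 TPM. Without replicate 1, 7 of the 9 pairs kept their order.

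Of the 10 genes, 8 had enough counts for a comparison between libraries, and Arg1 and Arg2 did not. Here and below the scale is counts scaled by TMM, a factor that aligns the bulk of genes. On that scale Sat1, Nos2, Acod1, Gch1, Ass1 and Asl were highest in replicate 2, which makes 6 of the 8. Over all 11886 genes tested, 32.3% were highest in replicate 2, 34.7% in replicate 1 and 33.0% in replicate 3. Slc7a2 and Odc1 were highest in replicate 1, and none of the 8 was highest in replicate 3. The median log2 ratio of a library to the other 2 was -0.08, 0.91 and -0.39 over the 8 genes in replicates 1, 2 and 3, beside 0.00, 0.00 and 0.01 over all genes tested.

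The highest library exceeded the lowest at least 2-fold for 6 of the 8 genes, beside 37.0% of all genes tested, and at least 4-fold for 3 of the 8, beside 7.84%. Odc1 had the widest range, at 4.65-fold, followed by Sat1 at 4.31-fold and Nos2 at 4.04-fold. Gch1 ranged 3.14-fold, Acod1 2.65-fold and Ass1 2.25-fold. Slc7a2 at 1.38-fold and Asl at 1.25-fold were the steady genes, below the median of 1.74-fold over all genes tested, while the median of the 8 was 2.90-fold. The count depends on 1 library: without replicate 2, 2 of the 8 genes differed at least 2-fold, beside 21.3% of all genes.

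The size of these differences is best seen gene by gene. Nos2 in replicate 2 was above the other 2 libraries by 1.84 on the log2 scale, from scaled CPM of 0.831, 3.36 and 1.04. Acod1 was above them by 1.40, from 15.8, 41.2 and 15.5, with its low libraries almost equal. Sat1 was also above them by 1.40, but from 147, 634 and 395, so that replicate 3 was intermediate. For Gch1, at 21.01, 25.3 and 8.06, the odd library was replicate 3, lower by a log2 ratio of -1.51. Odc1 ran the other way, with replicate 2 at a log2 ratio of -1.90 from 182, 39.0 and 117.

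**Figure D2:**
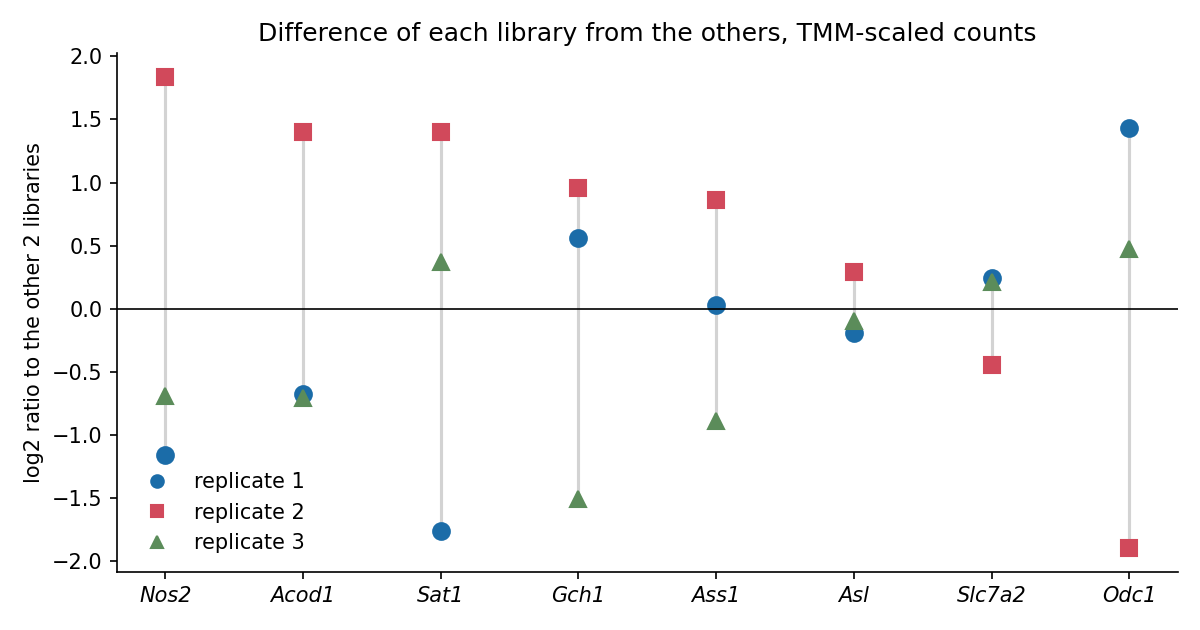
Log2 ratio of each library to the geometric mean of the other 2, from TMM-scaled counts, for the 8 genes with enough counts; each point is a library and the grey line joins the 3 of a gene. Replicate 2 is at the top for 6 genes, from 1.84 for Nos2 to 0.29 for Asl, and at the bottom for Slc7a2 and Odc1, where it reaches -1.90.

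A test of whether a gene varied more between libraries than genes of like abundance (edgeR's quasi-likelihood dispersion against its prior, Benjamini-Hochberg adjusted over all genes) called 0% of the 11886 genes, and none of the 8. The smallest adjusted p of any gene in edgeR was 0.97, so with 3 libraries the lack of calls does not show that a gene was steady. Without adjustment 545 of the 11886 genes had p under 0.05 in this test, and 1 of the 8, Odc1. Odc1 had the largest ratio of its dispersion to the prior, 7.41, with adjusted p = 0.97 in edgeR. The ratio was 4.95 for Sat1, 4.08 for Acod1, 3.36 for Gch1 and 3.30 for Nos2, each with adjusted p = 0.97 in edgeR. It was 0.998 for Ass1, with adjusted p = 0.984, and 0.183 for Asl and 0.168 for Slc7a2, both with adjusted p = 0.997. DESeq2 marked 9 of the 11886 genes as dispersion outliers, again none of the 8.

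The transcripts behind the gene value of Odc1 differed between libraries. Odc1-201, the coding transcript of 2208 bases, held 84.4%, 83.1% and 42.6% of the gene TPM in replicates 1, 2 and 3 and 90.98%, 88.8% and 64.2% in the kallisto-format table. Replicate 3 was thus the low library in both tables. Over the 8057 genes with coding and other transcripts, the median coding share was 95.3%, 93.1% and 94.6%. In the kallisto-format table it was 90.8%, 86.8% and 91.3%. Replicate 2 had the lowest median in both tables. A share at least 10 percentage points lower in replicate 3 than in both other libraries, in both tables, was found for Odc1 alone of the 5 genes of the set that have both kinds of transcript at this level, and for 10.1% of the 8057 genes. That share stands for 810 genes, whereas the same rule for replicate 1 or 2 found 65 and 281 genes. Such drops were thus most frequent in replicate 3 over all genes, and that of Odc1 is not particular to it.

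What took the place of Odc1-201 in replicate 3 came from a pair of transcripts. Odc1-204, a retained-intron transcript of 561 bases that holds 147 bases of intron 7 (chromosome 12, 17548640 to 17548786), had 0.856%, 0% and 25.9% of the gene TPM, and 1.08%, 0% and 23.2% in the kallisto-format table. In counts it had 7.20, 0 and 324, which was 0.137%, 0% and 5.65% of the Odc1 counts, since a short transcript gains in TPM. Odc1-205, annotated as a target of nonsense-mediated decay, the pathway that removes transcripts with an early stop, had 13.4%, 13.4% and 30.4% of the gene TPM and 6.30%, 8.07% and 11.7% in the kallisto-format table. It starts further downstream, with 8 exons against 12, and has 17 bases of intron 7, 67 bases of intron 8 and 421 bases past the 3′ end that Odc1-201 lacks. Counting only the coding transcript, Odc1 stood at 127, 27.7 and 43.2 TPM, and at 96.7, 21.2 and 55.4 TPM in the kallisto-format table, so replicate 3 lay between the other libraries in both.

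Sat1 carried a large share outside its coding transcripts in every library. Coding transcripts held 74.3%, 69.8% and 70.9% of its TPM, and 65.9%, 60% and 62.1% in the kallisto-format table, below the medians of the 8057 genes in each library and table. Retained-intron transcripts were the main remainder, with Sat1-205 at 11.8%, 15.2% and 12.2% and Sat1-206 at 7.65%, 9.46% and 8.84%. Sat1-207 contains an extra exon, known in this gene as a poison exon whose inclusion exposes the transcript to nonsense-mediated decay, and held 5.25%, 3.78% and 4.06% of the gene TPM. This exon 4 has 110 bases (chromosome X, 155215121 to 155215230, inside intron 3 of Sat1-201), a length that leaves a remainder of 2 when divided by 3. Its first 14 bases in transcript order are shown because they hold the stop codon, which is in capitals, from the M21 transcript sequences.
Sat1-207 exon start, chrX:155215217-155215230, minus strand: gttacagtctcTAG
The exon is within the 481 bases of intron 3 that Sat1-206 keeps, so reads inside it cannot tell Sat1-206 and Sat1-207 apart. The share of the second coding transcript, Sat1-202, was 2.19%, 2.01% and 9.92%, and 2.80%, 2.87% and 23.2% in the kallisto-format table, so replicate 3 was high there in both.

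**Figure D3:**
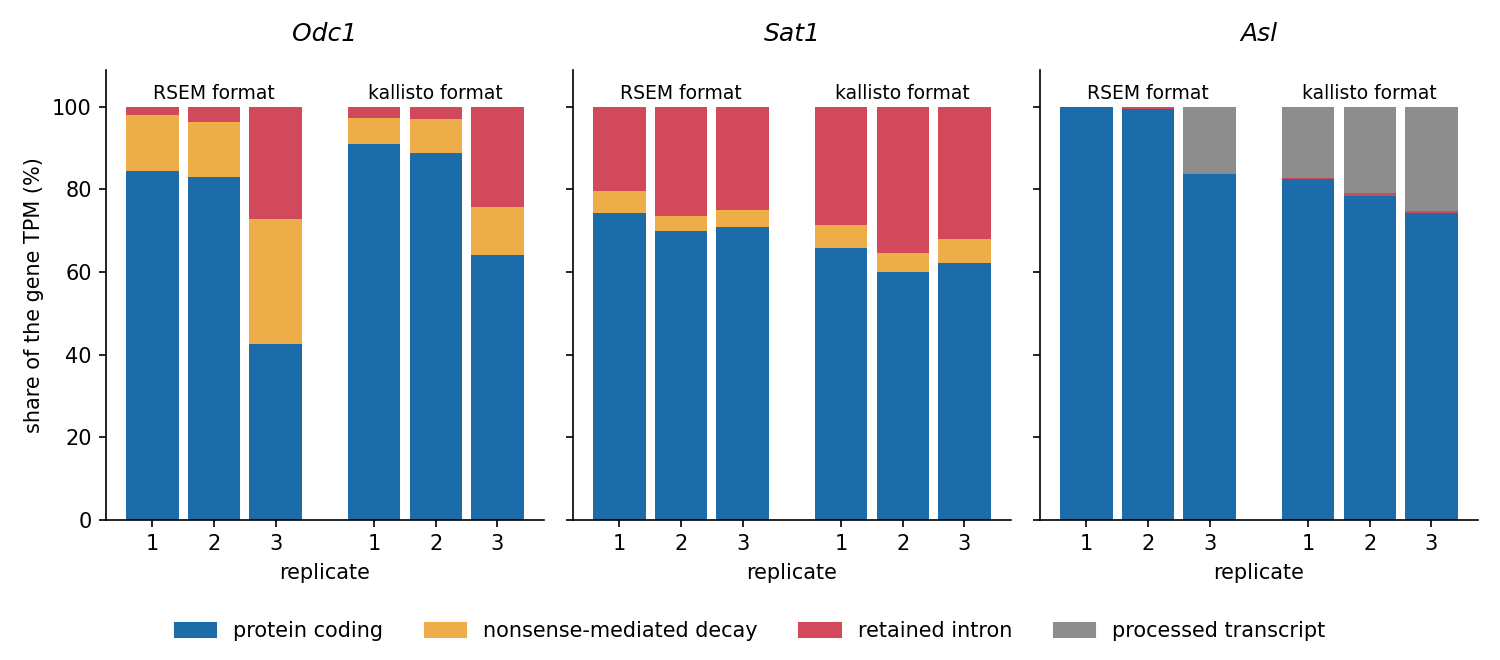
Share of the gene TPM by transcript type for Odc1, Sat1 and Asl, as stacked bars per replicate, in the RSEM-format table on the left and the kallisto-format table on the right of each panel. The coding share of Odc1 drops to 42.6% and 64.2% in replicate 3, that of Sat1 lies between 60% and 74.3% in every bar, and the tables differ for Asl.

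The tables did not give the same picture for Asl. Its coding share was 99.9%, 99.5% and 83.7% in the RSEM-format table and 82.4%, 78.4% and 74.2% in the kallisto-format table. The difference lay in Asl-204, a processed transcript without an open reading frame, at 0%, 0% and 16.3% in the first table and 17.3%, 20.8% and 25.4% in the second. For Slc7a2 the split among coding transcripts was not stable in the RSEM-format table, with Slc7a2-201 at 22.3%, 34.5% and 100% of the gene TPM, at a level of about 1 TPM. Gch1 and Ass1 were carried almost wholly by coding transcripts, at 94.95% to 97.8% and 96.3% to 100% in the RSEM-format table. Nos2-201, of 27 exons, held 100% of Nos2 in that table, and Acod1 and Arg2 have a single annotated transcript.

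Gene levels themselves depended little on the program. A kallisto-format TPM more than 1.5-fold off the RSEM-format TPM in every library in the same direction, after centring on the median ratio, was found for 2.52% of 10429 genes and for none of the 6 genes at 1 TPM or more. The kallisto-format levels were 181, 801 and 533 TPM for Sat1, 106, 23.9 and 86.3 for Odc1 and 10.4, 23.6 and 9.09 for Acod1. Nos2 stood at 0.356, 1.20 and 0.342 TPM there, with replicate 2 again highest.

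Shared sequence was most extensive in Ass1 and Odc1. Ass1 shares 1025 of its 2378 stretches of 31 bases with Gm5424, and Odc1 shares 1132 of 3617 with 20 other genes, most with Gm7993. These copies held few reads as counted: 1.25, 2.51 and 0 for Gm5424 and 15.5, 1.01 and 6.45 for Gm7993. How the programs divided reads between Odc1 or Ass1 and their copies was not tested, so both values are uncertain to that extent. Sat1 shares 6.92% of its stretches, Slc7a2 2.03%, Gch1 1.24% and Asl 0.547%, while Nos2, Arg1, Arg2 and Acod1 share none on the same strand.

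The upstream sequences of 5 of the 10 genes (Acod1, Ass1, Gch1, Odc1 and Sat1) were matched by symbol in RefSeq's promoter windows of the assembly GRCm38.p6. Sequence searched was the 250 bases before the RefSeq start, beside the same in 32851 windows. Acod1, Ass1 and Odc1 are shown, the first as an AT-rich and the others as CpG-rich examples, and each stretch stops where the M21 gene begins. Capitals mark matches to the NF-kB motif, GGGA and CC with 4 bases of any kind between them, NF-kB being the main transcription factor of the endotoxin response.
Acod1 upstream stretch, chr14:103046762-103046976, plus strand: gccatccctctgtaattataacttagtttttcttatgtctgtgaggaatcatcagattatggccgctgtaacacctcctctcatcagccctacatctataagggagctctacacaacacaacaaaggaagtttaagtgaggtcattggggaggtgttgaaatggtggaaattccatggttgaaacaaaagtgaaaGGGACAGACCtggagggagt
Ass1 upstream stretch, chr2:31470020-31470206, plus strand: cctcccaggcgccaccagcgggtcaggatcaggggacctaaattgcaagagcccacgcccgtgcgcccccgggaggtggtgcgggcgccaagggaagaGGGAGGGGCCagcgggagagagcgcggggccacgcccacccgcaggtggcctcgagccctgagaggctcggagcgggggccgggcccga
Odc1 upstream stretch, chr12:17544623-17544793, plus strand: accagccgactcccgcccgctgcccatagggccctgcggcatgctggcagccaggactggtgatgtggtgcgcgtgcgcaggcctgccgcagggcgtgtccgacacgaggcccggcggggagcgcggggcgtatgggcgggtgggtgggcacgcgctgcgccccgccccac
The window of Acod1 had 44.4% G and C with 2 CpG dinucleotides, that of Ass1 75.6% with 23 and that of Odc1 80% with 35, beside medians of 52.4% and 6 over all windows. Gch1 had 59.2% with 17 and Sat1 59.6% with 15.

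Motifs were searched on both strands, and a match is only a description of the letters. The NF-kB motif occurred in Acod1, 55 to 46 bases before the RefSeq start, and in Ass1, 152 to 143 bases before it, which is 2 of the 5 windows, beside 17.6% of all windows. The letters TATAAA of the TATA box occurred in Acod1, 28 to 23 bases before the RefSeq start, and on the minus strand in Gch1, beside 12.4% of all windows. That match in Acod1 lies in the last 35 bases of its window, which M21 places inside the gene and which are not shown. The E-box CACGTG occurred in Ass1, beside 6.02% of windows, in bases that M21 likewise places inside the gene. The IRF motif (GAAA, any 2 bases, GAAA), the GAS motif TTCNNNGAA, the STAT6 motif (TTC, any 4 bases, GAA), the AP-1 motif TGANTCA and the CRE motif TGACGTCA had no match in the 5 windows, beside 2.98%, 7.02%, 5.85%, 6.75% and 1.55% of all windows. No match overlapped another.

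Genes around these pathways, taken as 7 lists of 106 genes in all, show what surrounded the 10 genes in the same libraries. Among urea cycle and ornithine genes 8 of 13 reached 1 TPM in every library, led by Prmt1, an arginine methyltransferase, at 131, 45.5 and 37.7 TPM and Oat, ornithine aminotransferase, at 62.2, 49.96 and 31.98 TPM, with Agmat at 0. All 8 that could be tested were highest in replicate 1, beside 34.7% of all genes, and their median log2 ratio was 1.06, -0.78 and -0.52. Odc1, the other user of ornithine, was highest in that library too. In the polyamine list, 16 of 20 reached 1 TPM, led by Eif5a, the target of spermidine-derived hypusine, at 707, 296 and 233 TPM, and the lowest was Oaz3 at 0.04 to 0.05 TPM. There 11 of 18 tested genes were highest in replicate 1, with a median log2 ratio of 0.69, -0.17 and -0.48.

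The list of arginine and ornithine transport also holds a shared heavy chain and neutral amino acid carriers, so its counts are not of arginine transporters alone. It had 7 of 12 genes at 1 TPM, led by Slc3a2, the heavy chain, at 419, 323 and 341 TPM. Slc7a8, a neutral amino acid carrier, followed at 272, 52.5 and 59.95 TPM. Slc25a2 was lowest, at 0, 0.09 and 0 TPM. Of the 9 tested, 5 were highest in replicate 1, beside 34.7% of all genes, and their median log2 ratio was 1.06, -0.35 and -0.64. The list of nitric oxide synthases, cofactor enzymes and inhibitors had 11 of 17 at 1 TPM, led by Calm2, a calmodulin, at 565, 667 and 1149 TPM and Por, cytochrome P450 reductase, at 440.2, 217 and 1440.1 TPM. Pcbd1 was listed at 0 there but at 0.225, 0.432 and 0.146 TPM in the kallisto-format table. The median log2 ratio of the list was 0.24, -0.05 and 0.09.

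Among targets of nitric oxide 4 of 9 reached 1 TPM, led by Txn1, thioredoxin, at 244, 186 and 74.6 TPM and Cyb5r3, a cytochrome b5 reductase, at 124, 87.95 and 189.95 TPM, with Cygb at 0. Krebs cycle partners of itaconate reached it in 17 of 18 cases, led by Idh1, isocitrate dehydrogenase, at 119, 211 and 198 TPM and Sdha, the succinate dehydrogenase subunit that itaconate is known to inhibit, at 119, 134 and 137 TPM. Oxgr1, a receptor of itaconate, was at 0. The Krebs list had a median log2 ratio of 0.24, -0.20 and 0.20, and of its 17 tested genes 8 were highest in replicate 1, 1 in replicate 2 and 8 in replicate 3, beside 34.7%, 32.3% and 33.0% of all genes. Acod1 was highest in replicate 2.

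**Figure D4:**
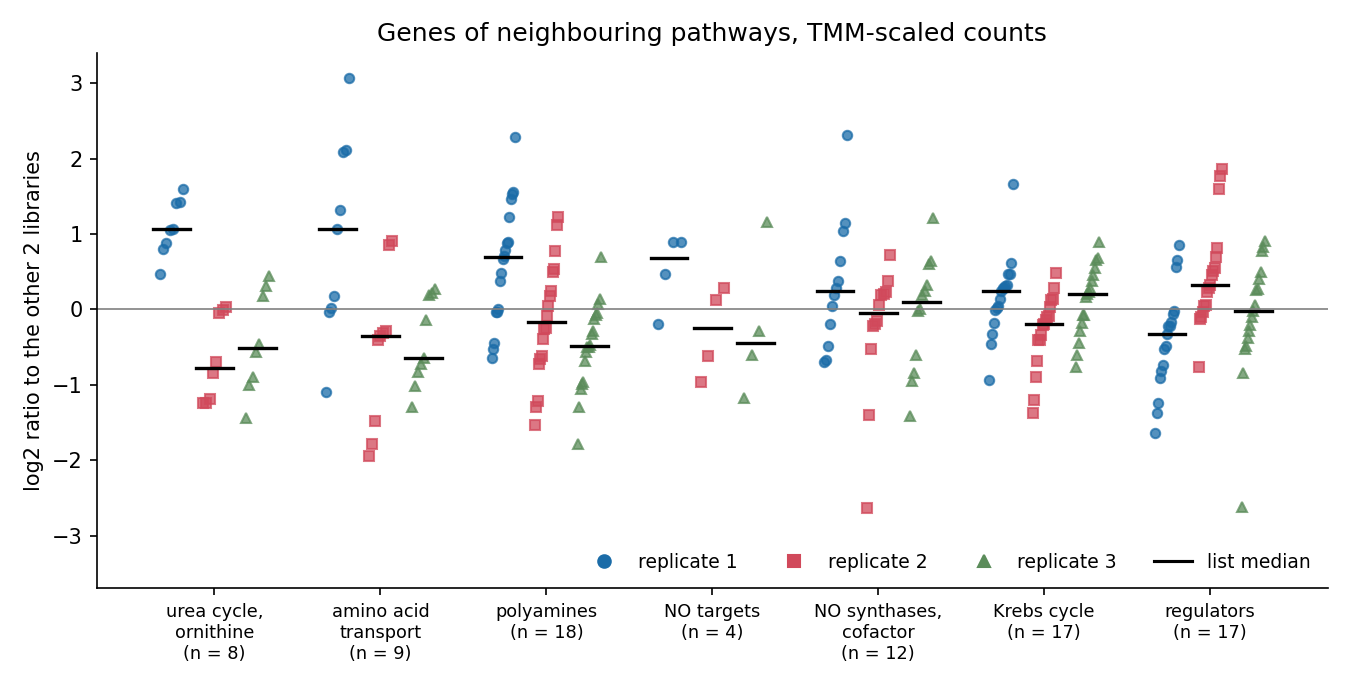
Log2 ratio of each library to the geometric mean of the other 2 for the tested genes of the 7 lists, from TMM-scaled counts; each point is a gene in a library and bars are list medians. Replicate 1 is above 0 for all 8 urea cycle and ornithine genes (median 1.06), and replicate 2 has the highest median in the regulator list (0.32).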

How the data were processed

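Expression of 10 genes was read from 3 polyA RNA-seq libraries of 1 group. Per the file headers, the authors deposited a gene table and a transcript table in RSEM format, and a transcript table in kallisto format, on mm10 with GENCODE M21. The deposited expected counts are estimates in which reads that fit several transcripts are shared out, and the authors also gave kallisto-format estimated counts for each transcript. Deposited TPM are abundances per effective length brought to a common sum, and deposited FPKM are scaled to gene length and library size. The deposited credibility bounds of TPM surround the deposited posterior mean rather than the TPM used as the level, and their level of credibility is not stated. The aligner, program versions and strand setting were not given in the sources used here. The deposited lists name 6, 6 and 4 read files for replicates 1, 2 and 3.

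Levels are TPM. Libraries were compared as rounded expected counts with TMM scaling, a prior count of 0.5 and the filterByExpr filter, which left 11886 genes, and spread was tested with an intercept-only quasi-likelihood fit in edgeR 4.0.16 at an adjusted p of 0.05. The biological coefficient of variation was 0.398. The step was tested on simulated data in which the planted changes were far larger than the ranges of the 10 genes. Whether it would call differences of the size seen here was not tested. DESeq2 1.42.0, other scalings, filters, tables and each library left out were alternatives. All 10 genes are named. Of the 7 neighbour lists, the 2 highest genes, the lowest and genes with a direct role beside a member are named, except for some that are not reported here. Identity of the Arg1 and Arg2 proteins was planned and not run, since no protein sequences were used here. The members and lists were chosen with earlier results of these data known.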

Additional observations from a re-analysis of the deposited data

How the results depend on the processing

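No paired analysis was possible because the libraries form a single group. Levels moved by less than the spread between libraries in 66 of 70 alternatives, log2 ratios in 139 of 144 and transcript shares in 35 of 39. These counts include the alternatives with a library left out. With 3 libraries, leaving 1 out cannot move a mean or such a ratio beyond that spread. Those alternatives therefore could not come out otherwise and are no sign of stability. Of the log2 ratios 10 changed sign, 8 of them with a library left out, when a ratio is to the 1 library that remains. Without replicate 2 the ratio of replicate 3 became 0.31 for Nos2, 0.05 for Asl, -0.02 for Slc7a2 and -0.64 for Odc1, and that of replicate 1 became 0.02 for Acod1. Without replicate 3 that of replicate 1 became -0.56 for Ass1 and -0.27 for Gch1, and without replicate 1 that of replicate 3 became -0.68 for Sat1. On log2(TPM + 1) and log2(TPM + 0.1) replicate 3 of Slc7a2 was at -0.20 and -0.39 instead of 0.21. Replicate 2 set several means: without it Nos2 averaged 0.33 TPM, Acod1 9.33 TPM and Sat1 400.4 TPM. Arg1 rests on replicate 1, at 0 TPM without it, and stood at 0.61 TPM as posterior mean and 0.19 FPKM. Leaving out each library in turn, 4 to 7 neighbouring pairs kept their order. Without replicates 1, 2 and 3 in turn, 5, 2 and 4 of 8 genes ranged at least 2-fold, beside 19.1%, 21.3% and 20.2% of all genes. With a library left out, 0 to 7 of all genes tested were called more variable than others of like abundance. Raising the fold to 4 left 3 genes, beside 7.84% of all genes. Without the filter on low counts 146 genes were called more variable, and 9 by DESeq2, none of them among the 10. For those changes other than fewer libraries or a stricter fold, the cause was not tested. Alternatives for the coding share and for the difference between programs were chosen after seeing the data, and left 1 and 0 genes as before. Depth limits Arg1, Arg2, Nos2 and Slc7a2, with at most 220 counts in any library.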

Other observations

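Of 17 genes known as regulators of Nos2, Arg1 and Acod1, 16 reached 1 TPM in every library, with a median of their mean levels of 67.98 TPM. Nfe2l2, the factor that itaconate is known to activate, stood at 148, 327 and 297 TPM in replicates 1, 2 and 3. Klf4 was lowest, at 1.58, 1.12 and 0.73 TPM. On the TMM-scaled counts 9 of the 17 were highest in replicate 2, the library in which Nos2 and Acod1 were highest, beside 32.3% of all genes tested, and the median log2 ratio of the list was -0.33, 0.32 and -0.02.

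Other regulators, chosen here after their values were seen, differed in which library was high. Of all 17, 2 were highest in replicate 1, 9 in replicate 2 and 6 in replicate 3. A high library shared by 2 genes rests on 3 points and was not tested. Irf1, an interferon regulatory factor required for Nos2 induction, stood at 30.9, 137 and 54.4 TPM and Il10ra, the interleukin 10 receptor chain, at 28.0, 126 and 49.8 TPM, both highest in replicate 2. Rela, the p65 subunit of NF-kB, stood at 40.3, 53.1 and 191 TPM, highest in replicate 3. On TMM-scaled counts Rela ranged less, 2.22-fold, with replicate 3 again highest. Stat6 and Il4ra, which carry the interleukin 4 signal to Arg1, stood at 95.2, 108 and 97.2 TPM and at 97.9, 84.5 and 67.1 TPM, while Arg1 itself had 7, 0 and 0 counts.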
